A study of Homo sapiens with 10 samples.

Results

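Polyamine metabolism was described here through 10 genes, ODC1, AMD1, SRM, SMS, SAT1, SMOX, PAOX, OAZ1, OAZ2 and AZIN1, out of 60651 genes in the deposited count table. The genes were chosen by symbol, after the fall of ODC1 in t-hESC under each compound had been seen in these data. The values of ODC1 in those 2 comparisons, and in the difference that uses one of them, are therefore given without a test. All 10 genes passed the filter on low counts, as did 22495 genes in all. RNA was sequenced from 5 groups of 2 libraries: t-hESC with the solvent DMSO, t-hESC with 1 µM of BIX, t-hESC with 10 µM of VXN, HT29 with DMSO and HT29 with 10 µM of VXN. HT29 is an established line of colorectal cancer cells, and t-hESC is labelled a transformed pluripotent stem cell line. BIX is a common short name for an inhibitor of G9a and GLP, the enzymes that dimethylate lysine 9 of histone H3, and VXN is a code left unexplained in the labels. The treatment label reads 48 hours of DMSO for every library, so the compounds and doses rest on the sample titles. The design text calls the 2 libraries of a group biological replicates, nothing ties them to separate cultures, and the p-values therefore cover the spread of these libraries alone, which may be technical.

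Polyamines are small, positively charged molecules that bind nucleic acids and that growing cells need. ODC1 makes putrescine from ornithine, AMD1 supplies the aminopropyl donor by decarboxylating S-adenosylmethionine, and the synthases SRM and SMS add aminopropyl groups to give spermidine and then spermine. In the opposite direction SAT1 acetylates spermidine and spermine, PAOX oxidises the acetylated forms, and SMOX oxidises spermine itself. The antizymes OAZ1 and OAZ2 bind the ODC1 protein, send it to the proteasome and block polyamine uptake, while AZIN1 resembles ODC1, lacks its activity and captures antizyme. ODC1 is a textbook target of MYC, and its activity is commonly raised in colorectal tumours. Much of the control in this pathway acts on translation and protein stability, which RNA counts do not measure, and gene counts add up all splice forms of a gene.

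Total gene counts ran from 13137026 to 24492838 per library, so that 3 counts, the level a count of 0 allows, came to 0.124 to 0.220 CPM (counts scaled to library size, with TMM factors), for counting error only. All 6 pluripotency markers exceeded 1 CPM in t-hESC, with a summed level of 4102 to 4177 CPM under DMSO, 4049 to 4125 under BIX and 3692 to 3717 under VXN. Of 6 colorectal epithelial markers VIL1, LGALS4, KRT20 and CDX2 exceeded 1 CPM in HT29, while CDX1 and CDH17 did not. The summed level of these 6 was 1075 to 1084 CPM in HT29 under DMSO and 1423 to 1429 under VXN. Its members moved in different directions: KRT20 went from 249.6 to 704 CPM, VIL1 from 183 to 95.1 and LGALS4 from 645 to 625. The sum of 6 genes listed as fibroblast markers ran in t-hESC from 680.3 to 680.5 CPM under DMSO, 803 to 844 under BIX and 948 to 950 under VXN. It was mostly THY1, at 587, 693 and 857 CPM, so the sum largely follows 1 gene and no fibroblast share is read from it. In t-hESC COL1A1 stood at 33.2 CPM with DMSO, 42.5 with BIX and 37.6 with VXN, COL1A2 at 41.3, 69.7 and 39.1, and PDGFRB at 18.5, 17.9 and 15.5, while DCN and LUM lay at or near 0. Of the pluripotency markers SOX2 stood at 276, 305 and 221 CPM and TDGF1 at 273, 264 and 172 in the same groups. Pluripotency markers in HT29 summed to 4.06 to 4.33 CPM under DMSO and 7.96 to 10.2 under VXN, with LIN28A at 0.0206 and 0.606 CPM beside 1052 in t-hESC under DMSO. The part of these shifts in the results was not tested, and in bulk RNA fewer cells of a type and less RNA per cell cannot be told apart.

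SMOX, PAOX and AZIN1 were left out of a search for sequence motifs, so its counts do not cover them. Sequences upstream of the start were taken for the other 7 of the 10 genes, as 10 windows of 250 bases from RefSeq (GRCh38.p14). Each was searched on both strands for the E-box CACGTG, which MYC proteins bind, the cyclic AMP element TGACGTCA, the antioxidant element core TGACNNNGC and the AP-1 element TGANTCA. The E-box stood in 2 of the 10 windows, belonging to SRM and ODC1, against 6.34% of 35116 windows of the same length upstream of annotated starts. The 10 windows are not separate stretches, since AMD1 has 3 of them and a pair of these is shifted by a single base. No window held the cyclic AMP element (1.65% of all windows) or the antioxidant core (10.9%), and the AP-1 element stood in 1 window, that of OAZ2 (6.57%). The windows of SRM and ODC1 are shown because they hold the E-box, and that of SAT1 as an example without it. The windows of AMD1, SMS and OAZ1 hold no E-box, and these genes fell with VXN in both lines. OAZ2, also without it, fell with VXN in HT29, while SAT1, without it too, rose with VXN. SRM, which has it, fell with both compounds in t-hESC and did not change detectably with VXN in HT29. ODC1, with an E-box at its inner start, fell with VXN in HT29 and lay lower in both treated t-hESC groups. A link between the E-box and these changes was not tested. The sequences shown are written 5′ to 3′ in the direction of the gene, and capitals mark the E-box. The SRM window lies at chr1:11060019-11060268 on the minus strand, and its E-box ends 194 bases before the start. ODC1 has 2 annotated starts, the outer with the window chr2:10448328-10448577 and the inner with an E-box 24 bases before it, shown as a stretch of 30 bases at chr2:10448024-10448053, both on the minus strand. The SAT1 window lies at chrX:23782923-23783172 on the plus strand.
SRM: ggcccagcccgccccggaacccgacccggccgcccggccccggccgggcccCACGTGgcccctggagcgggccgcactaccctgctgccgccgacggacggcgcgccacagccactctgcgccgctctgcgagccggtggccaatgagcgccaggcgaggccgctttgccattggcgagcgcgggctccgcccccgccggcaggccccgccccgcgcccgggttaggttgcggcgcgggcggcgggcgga
ODC1 outer start: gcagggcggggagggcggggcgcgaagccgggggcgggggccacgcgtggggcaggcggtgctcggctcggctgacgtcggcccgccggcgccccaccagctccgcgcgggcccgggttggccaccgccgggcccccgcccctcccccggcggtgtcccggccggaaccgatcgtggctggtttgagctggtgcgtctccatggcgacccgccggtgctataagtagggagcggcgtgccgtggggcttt
ODC1 inner start: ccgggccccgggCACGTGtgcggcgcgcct
SAT1: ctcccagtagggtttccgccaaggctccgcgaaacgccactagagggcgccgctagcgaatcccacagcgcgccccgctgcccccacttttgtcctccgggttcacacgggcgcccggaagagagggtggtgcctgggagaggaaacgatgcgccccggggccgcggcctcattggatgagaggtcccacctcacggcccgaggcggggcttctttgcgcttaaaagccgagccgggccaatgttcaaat
A match describes these letters only, and no binding was measured in these libraries.

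Under VXN, RNA of SAT1 and SMOX, which acetylate and oxidise polyamines, rose in both lines. PAOX, which oxidises the acetylated forms and had few counts, was not called with VXN in either line. RNA of AMD1 and SMS, which serve polyamine synthesis, fell in both. The authors' deposited table for VXN in t-hESC called neither SMOX nor SMS. SAT1 rose 2.05-fold in t-hESC and 2.92-fold in HT29 under VXN, and SMOX rose 1.43-fold and 3.24-fold. In HT29 under VXN ODC1 fell 1.80-fold and SMS 2.11-fold, while SRM did not change detectably. Under BIX in t-hESC AMD1, SRM, OAZ1 and AZIN1 fell in edgeR and in DESeq2 as run here. Of these the authors' deposited table for BIX called AMD1 and SRM but not OAZ1 or AZIN1. SMS, SMOX and OAZ2 fell with BIX in edgeR only, and neither SAT1 nor PAOX passed the test. These values are shown library by library in the plot of the 10 genes.

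**Figure D1:**
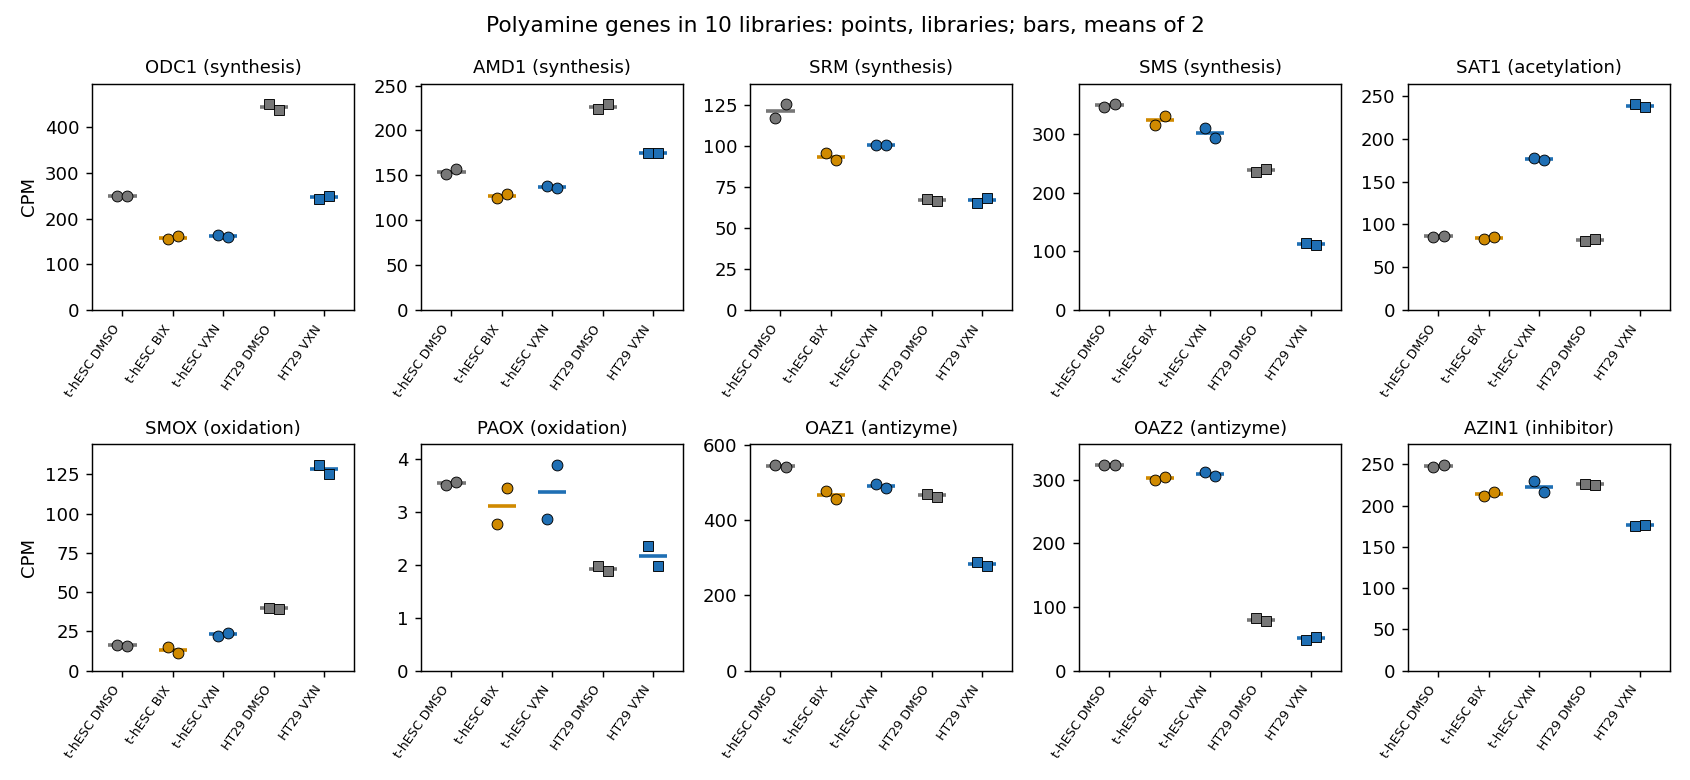
Level of each of the 10 genes in CPM (vertical axes, from 0, on a different scale for each gene) in the 5 groups; points are libraries (circles t-hESC, squares HT29) and bars the means of 2. SAT1 stands at 175 to 178 CPM in t-hESC and 237 to 240.4 CPM in HT29 under VXN, above every library without VXN, while ODC1 lies lower in each treated group than in DMSO libraries of the same line.

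ODC1 (ornithine decarboxylase; chromosome 2, 10439968 to 10448327, GRCh38.p14) catalyses the first step of synthesis. Its level was 249 and 249 CPM in the t-hESC libraries with DMSO, 156 and 161 with BIX, and 164 and 160.3 with VXN. The treated libraries lay below both controls, and the BIX and VXN ranges overlapped each other. The log2 fold change was -0.65 ± 0.036 (SE) for BIX and -0.62 ± 0.035 for VXN, given as a description because these falls led to the choice of the genes. HT29 held 450.2 and 437 CPM under DMSO and 243 and 249.7 under VXN. That fall was -0.85 ± 0.031 on the log2 scale (edgeR adjusted p = 2.19e-34), with no overlap between groups. VXN-treated HT29 thus held about the ODC1 level of untreated t-hESC, 246 ± 4.8 against 249 ± 0.20 CPM (SD, n = 2), ranges that overlapped. Counts of ODC1 ran from 2191 to 10926, and the highest count of any of 9 pseudogene entries of ODC1, AMD1, SRM and OAZ1 was 11.

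AMD1 (adenosylmethionine decarboxylase; chromosome 6, 110814617 to 110895713) showed the same order of groups within each line. In t-hESC its level was 151 and 157 CPM with DMSO, 125 and 129 with BIX, and 138 and 136 with VXN. Both treated groups lay below the controls without overlap. The log2 fold change was -0.28 ± 0.039 for BIX (adjusted p = 6.15e-08) and -0.17 ± 0.038 for VXN (adjusted p = 0.000241). HT29 went from 223 and 229 CPM with DMSO to 174 and 174 with VXN, a change of -0.38 ± 0.034 (adjusted p = 1.56e-15). All of these changes were smaller in size than those of ODC1 in the same comparison, a difference between genes that was not tested.

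SRM (spermidine synthase; chromosome 1, 11054589 to 11060018) changed in t-hESC and not detectably in HT29. Its t-hESC libraries held 117 and 126 CPM with DMSO, 95.5 and 91.8 with BIX, and 101 and 101 with VXN, again without overlap. It fell by 0.38 on the log2 scale with BIX (SE 0.044, adjusted p = 3.29e-10) and by 0.27 with VXN (SE 0.042, adjusted p = 3.37e-07). HT29 held 67.9 and 66.4 CPM with DMSO and 65.6 and 68.4 with VXN, so the groups overlapped. The 95% interval of that log2 fold change, -0.098 to 0.087 around -0.0055 (adjusted p = 0.972), leaves out a fall of the size seen in t-hESC.

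SMS (spermine synthase; chromosome X, 21940709 to 21994837) showed the reverse arrangement, with its largest change in HT29. HT29 libraries held 235 and 241 CPM with DMSO and 114 and 112 with VXN, a change of -1.08 ± 0.037 (adjusted p = 2.31e-36). In t-hESC the levels were 347 and 351 CPM with DMSO, 316 and 332 with BIX, and 311 and 293 with VXN. Controls lay above both treated groups. The log2 fold change was -0.21 ± 0.033 for VXN (adjusted p = 5.45e-07) and -0.11 ± 0.033 for BIX (adjusted p = 0.0108). The BIX call was lost in DESeq2 (adjusted p = 0.0792), without the second DMSO library (0.0617) and without the first BIX library (0.188).

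SAT1 (spermidine/spermine acetyltransferase; chromosome X, 23783173 to 23786210) rose with VXN in both lines and did not pass the test with BIX. In t-hESC it measured 85.5 and 86.5 CPM with DMSO, 82.7 and 85.6 with BIX, and 178 and 175 with VXN. BIX and DMSO libraries overlapped, and VXN libraries stood above all the others. The log2 fold change was 1.04 ± 0.040 for VXN (adjusted p = 3.46e-32) and -0.033 ± 0.045 for BIX (adjusted p = 0.685, 95% interval -0.12 to 0.058). HT29 started from a similar level, 80.8 and 82.9 CPM, and reached 240.4 and 237 with VXN, a change of 1.54 ± 0.037 (adjusted p = 5.87e-45). The doses of BIX and VXN differ by design, so their values stand side by side and no test compares them.

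SMOX (spermine oxidase; chromosome 20, 4148828 to 4187727) rose from 39.7 and 39.6 CPM to 131 and 125 in HT29 under VXN. This change of 1.69 ± 0.050 on the log2 scale (adjusted p = 1.05e-39) was the highest among the 10 genes in any comparison with DMSO. In t-hESC SMOX measured 16.3 and 16.0 CPM with DMSO and 22 and 24.3 with VXN, a rise of 0.52 ± 0.085 (adjusted p = 1.21e-06). With BIX it measured 14.8 and 11 CPM, below the controls, with a log2 fold change of -0.31 ± 0.10 (adjusted p = 0.0177). That last call depended on single libraries. It was lost without the second BIX library (-0.13, adjusted p = 0.515), without the first DMSO library (0.0714) and in DESeq2 (0.0532).

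PAOX (peroxisomal polyamine oxidase; chromosome 10, 133379262 to 133391694) had few counts, 39 to 76 per library. Its level ran from 2.77 to 3.89 CPM in t-hESC and from 1.88 to 2.36 CPM in HT29. The groups of a line overlapped, apart from t-hESC with BIX at 2.77 and 3.45 beside 3.52 and 3.58 with DMSO. The log2 fold change was -0.20 ± 0.20 for BIX (adjusted p = 0.555, 95% interval -0.61 to 0.21), -0.065 ± 0.19 for VXN in t-hESC (adjusted p = 0.861) and 0.18 ± 0.22 for VXN in HT29 (adjusted p = 0.517). The standard errors of PAOX were the largest of the set, and small changes were not detectable at this depth.

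OAZ1 (antizyme 1; chromosome 19, 2269486 to 2273488) fell in all 3 comparisons with DMSO. In t-hESC it measured 546 and 541 CPM with DMSO, 477 and 456 with BIX, and 496 and 485 with VXN, changes of -0.22 ± 0.031 (adjusted p = 4.96e-08) and -0.15 ± 0.030 (adjusted p = 7.83e-05). In HT29 it went from 469.6 and 462 CPM to 288 and 277, a change of -0.72 ± 0.031 (adjusted p = 1.13e-30). No treated library reached a control of its own line. OAZ1 and ODC1, whose proteins oppose each other, therefore fell together in HT29, and both also lay lower in the treated t-hESC libraries.

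OAZ2 (antizyme 2; chromosome 15, 64687574 to 64703281) differed more between the lines than with any compound. It measured 323 and 324 CPM in t-hESC with DMSO, 300.2 and 305 with BIX, and 312 and 306 with VXN. HT29 held 82.7 and 77.6 CPM with DMSO and 48.9 and 52.3 with VXN, a change of -0.67 ± 0.047 (adjusted p = 2.53e-20). The shift in t-hESC was -0.096 ± 0.033 for BIX (adjusted p = 0.0281) and -0.065 ± 0.033 for VXN (adjusted p = 0.141, 95% interval -0.13 to 0.001). Neither verdict was firm: upper-quartile scaling called the VXN shift (-0.088, adjusted p = 0.0346). The BIX call was lost with size factors of the DESeq2 type (0.069), in DESeq2 (0.153), and without the first BIX (0.126) or the first (0.0909) or second (0.0825) DMSO library.

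AZIN1, the antizyme inhibitor, measured 247 and 249 CPM in t-hESC with DMSO, 211 and 217 with BIX, and 230.3 and 216 with VXN. Its log2 fold change was -0.21 ± 0.035 for BIX (adjusted p = 2.25e-06) and -0.15 ± 0.035 for VXN (adjusted p = 0.000294). In HT29 it fell from 227 and 225 CPM to 175 and 176, a change of -0.36 ± 0.034 (adjusted p = 1.63e-14). Controls and treated libraries did not overlap in any of the 3 comparisons. The plot of log2 fold changes sets the 3 comparisons beside each other for every gene.

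**Figure D2:**
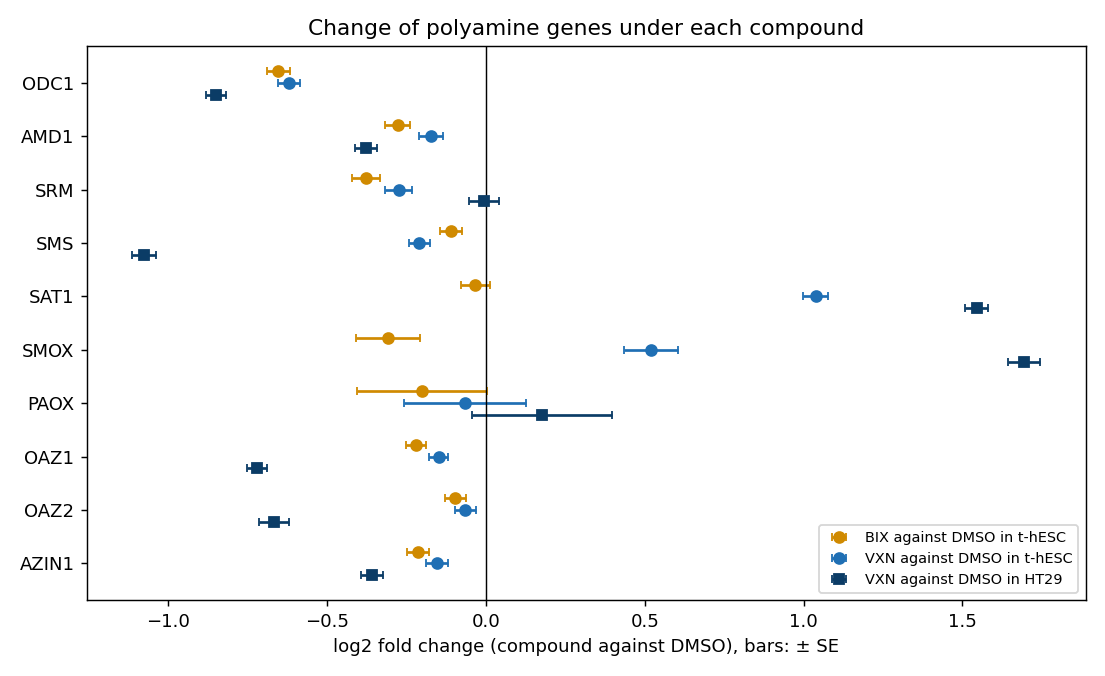
Log2 fold change against DMSO of the same line (horizontal axis) for the 10 genes (vertical axis); points are estimates of the fit to 2 libraries a group and bars ± SE. Points left of 0 dominate, apart from SAT1 and SMOX under VXN, at 1.04 and 0.52 in t-hESC and 1.54 and 1.69 in HT29.

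Counted over the set, 7 of the 9 genes tested were lower with BIX in t-hESC, by the edgeR quasi-likelihood test at an adjusted p under 0.05. The background was 23.1% of all genes called, 10.9% higher and 12.2% lower. The 10 genes are mostly abundant, and among the 9023 genes that averaged 20 CPM or more, a background chosen after seeing the data, 43.1% were called. DESeq2 called 4 of the 9, namely AMD1, SRM, OAZ1 and AZIN1. The median log2 fold change was -0.22 over the 10 genes, ODC1 included, and 0.0015 over all genes tested.

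VXN in t-hESC called 7 of the 9 tested, with SAT1 and SMOX higher and AMD1, SRM, SMS, OAZ1 and AZIN1 lower. Of all genes 29.0% were called, 14.5% higher and 14.6% lower, and 49.0% of the abundant genes. The median was -0.15 beside 0.0036 over all genes. Both t-hESC comparisons share their DMSO libraries, so the likeness of their falls is not independent.

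VXN in HT29 called 8 of 10, with SAT1 and SMOX higher and 6 genes lower. This share has to be read against 60.0% of all genes called in that comparison, 33.0% higher and 26.9% lower, and 80.2% of the abundant genes. A count of 8 of 10 is thus near the share for abundant genes. The median was -0.37 beside 0.055 over all genes. The authors' deposited tables call fewer of the 10 genes, 3 with BIX and 4 with VXN in t-hESC, ODC1 included, and 7 with VXN in HT29. ODC1 and AMD1 were lower in all 3 of the authors' deposited tables, SRM in those of t-hESC, and SAT1 was higher with VXN in both lines. In the authors' deposited table for HT29 SMOX was higher and SMS, OAZ1 and OAZ2 were lower, but AZIN1 was not called (adjusted p = 0.226). With VXN in t-hESC the authors' deposited table did not call SMOX (0.134), OAZ1 (0.339), SMS (0.406) or AZIN1 (0.832), and with BIX it did not call OAZ1 (0.155), SMOX (0.54), OAZ2 (0.709), SMS (0.832) or AZIN1 (0.834), all of which were called here. The authors' deposited table for BIX gave no adjusted p for PAOX.

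Ratios of counts within a library show how the arms of the pathway moved relative to each other, free of the scaling between libraries. They also depend on the lengths of the transcripts, so only their change between libraries is read, with no test. SAT1 over ODC1 was 0.344 and 0.347 in t-hESC with DMSO, 0.530 and 0.532 with BIX, and 1.09 and 1.09 with VXN. In HT29 the same ratio went from 0.179 and 0.190 to 0.990 and 0.949. The t-hESC values rest on the ODC1 levels that led to the choice of the genes. ODC1 over OAZ1 went from 0.455 and 0.461 in t-hESC to 0.327 and 0.353 with BIX and 0.330 and 0.331 with VXN. In HT29 it was 0.959 and 0.946 with DMSO and 0.844 and 0.90 with VXN, a smaller relative drop. OAZ1 fell more there (-0.72 on the log2 scale) than in t-hESC (-0.22 with BIX and -0.15 with VXN). SMS over SRM went in HT29 from 3.47 and 3.63 to 1.74 and 1.63, below every t-hESC library (2.80 to 3.61). AZIN1 over OAZ1 stayed between 0.443 and 0.486 in all groups except HT29 with VXN, where it was 0.609 and 0.636.

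**Figure D3:**
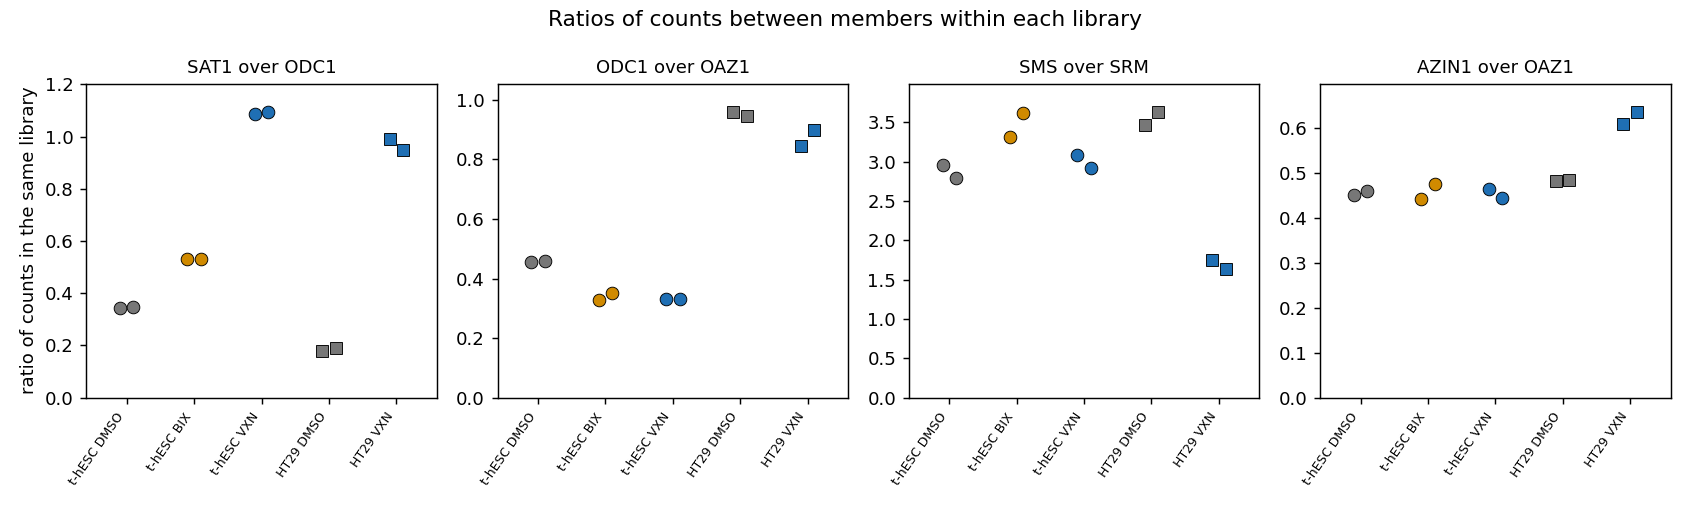
Ratio of the counts of 2 genes in the same library (vertical axes, from 0) in the 5 groups; each point is a library. SAT1 over ODC1 lies between 0.949 and 1.09 in all libraries with VXN and between 0.179 and 0.532 in the others.

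The response to VXN differed between the lines for most of the set. The difference of the log2 fold changes, HT29 minus t-hESC, was called for 8 of the 9 genes tested, beside 43.2% of all genes (22.9% higher, 20.3% lower) and 66.7% of the abundant ones. It was higher for SMOX (1.17 ± 0.10, adjusted p = 5.06e-16), SAT1 (0.51 ± 0.055, adjusted p = 3.47e-12) and SRM (0.27 ± 0.063, adjusted p = 0.000267). SAT1 and SMOX thus rose more in HT29 than in t-hESC. SMS differed by -0.87 ± 0.049 (adjusted p = 6.28e-24), OAZ2 by -0.60 ± 0.057 (adjusted p = 3.08e-14) and OAZ1 by -0.57 ± 0.044 (adjusted p = 3.99e-18). AMD1 and AZIN1 differed by -0.20 and -0.21. PAOX was not called (0.24 ± 0.29, adjusted p = 0.558), and ODC1 had a difference of -0.23 ± 0.047, given without a test. Beside these values stand the marker shifts under VXN given above, with KRT20 higher and VIL1 lower in HT29, and THY1 and NANOG (52.2 to 69.3 CPM) higher and TDGF1, SOX2 and PDGFRB lower in t-hESC; their part was not tested.

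**Figure D4:**
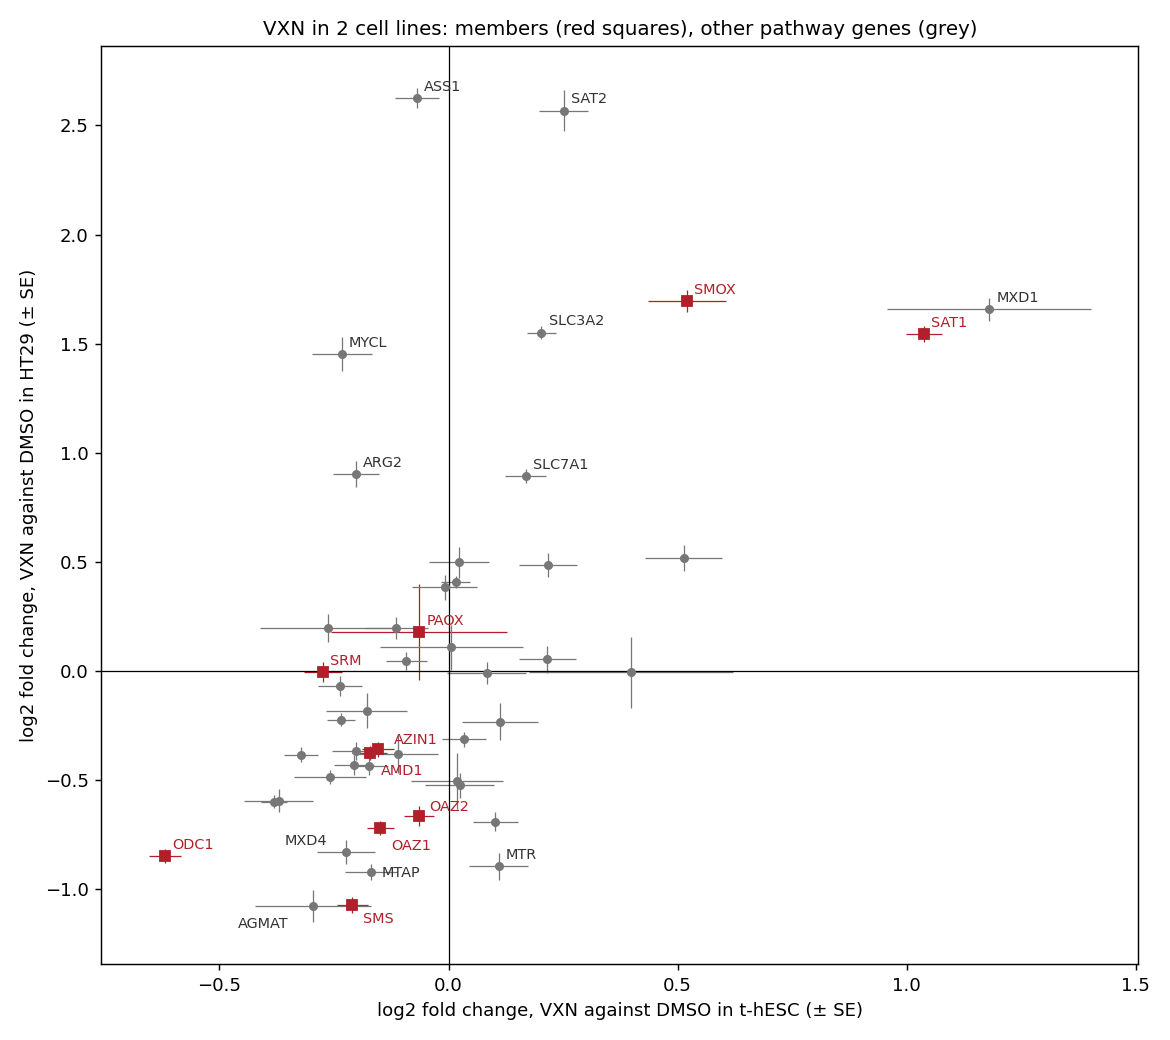
Log2 fold change of VXN against DMSO in t-hESC (horizontal axis) and in HT29 (vertical axis) for 49 genes with at least 1 CPM in all 4 groups; red squares are the 10 polyamine genes, grey circles other pathway genes, and bars ± SE. SAT1 and SMOX lie to the upper right, ODC1 to the lower left, and SMS far lower in HT29 (-1.08) than in t-hESC (-0.21).

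Without compound the lines already differed in 9 of the 10 genes, which is near the background of 84.4% (38.9% higher in HT29, 45.6% lower) and the 91.0% of abundant genes. The count includes ODC1, whose t-hESC level with DMSO entered the choice of the genes, so its call here is not independent of that choice. OAZ2 was 4.03-fold lower in HT29 (log2 -2.01 ± 0.037, adjusted p = 3.63e-52), and SRM (-0.86 ± 0.043), PAOX (-0.88 ± 0.20) and SMS (-0.55 ± 0.033) were lower as well. HT29 held more SMOX (1.29 ± 0.072), ODC1 (0.83 ± 0.032) and AMD1 (0.56 ± 0.035). OAZ1 and AZIN1 were lower in HT29 by smaller steps, at -0.22 ± 0.030 and -0.14 ± 0.033. SAT1 was not called (-0.071 ± 0.042, adjusted p = 0.109), but upper-quartile scaling, which moves the median of all genes here by -0.11, gave -0.18 (adjusted p = 7.7e-05), and a minimum count of 50 gave -0.11 (adjusted p = 0.0121).

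Across the 5 groups the order of mean levels differed between genes, except that SRM, OAZ1 and OAZ2 shared the same order. For ODC1 and AMD1 the highest group was HT29 with DMSO, for SRM, SMS, OAZ1, OAZ2, PAOX and AZIN1 it was t-hESC with DMSO, and for SAT1 and SMOX HT29 with VXN. The lowest group was HT29 with VXN for SMS (113 ± 1.9 CPM, SD, n = 2), OAZ1 (283 ± 7.4), OAZ2 (50.6 ± 2.4), AZIN1 (176 ± 0.80) and SRM (67.0 ± 2.0), the last overlapping HT29 with DMSO. Neighbouring groups overlapped for OAZ1 between t-hESC with BIX (466 ± 15 CPM) and HT29 with DMSO (466 ± 5.3). For SAT1 the 3 groups without VXN overlapped in sequence, at 86.0 ± 0.72, 84.1 ± 2.0 and 81.8 ± 1.5 CPM. In AMD1, SMS, SMOX and OAZ2 no neighbouring groups overlapped.

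Of 52 other genes around the pathway 49 passed the filter. Ornithine and arginine supply counted 9 of 11 genes past it. Of these 1 rose and 5 fell with BIX, 1 and 5 with VXN in t-hESC, and 3 and 5 with VXN in HT29. Beside these counts, 23.1%, 29.0% and 60.0% of all genes were called, and 43.1%, 49.0% and 80.2% of the abundant genes. The HT29 count is thus near the share for abundant genes. ASS1, which makes argininosuccinate on the way to arginine, rose in HT29 from 28.8 to 178 CPM (2.63 ± 0.046, adjusted p = 2.19e-52). SLC7A1, an importer of arginine and other cationic amino acids, rose there from 289.6 to 538 CPM (0.89 ± 0.034), and ARG2, an arginase that yields ornithine, from 27.0 to 50.5 (0.90 ± 0.059). AGMAT fell from 31.6 to 15.0 CPM. In t-hESC the changes were smaller, with ALDH18A1, which leads from glutamate to ornithine and proline, at -0.32 ± 0.037 and ASL at -0.37 ± 0.075 under VXN, and ARG2 at -0.30 ± 0.053 under BIX.

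Of 9 polyamine transport genes past the filter 6 rose and 1 fell with VXN in HT29, beside 1 and 1 with VXN in t-hESC, and 1 fell with BIX. The share of all genes called differs in the same direction, 60.0% with VXN in HT29 (33.0% higher) against 29.0% in t-hESC and 23.1% with BIX. SLC3A2, a heavy chain of amino acid transporters linked to polyamine export, rose from 265 to 776 CPM in HT29 (1.55 ± 0.030, adjusted p = 3.76e-50) and from 344 to 396 in t-hESC (0.20 ± 0.031, adjusted p = 2.45e-07). SLC22A3, an organic cation transporter, rose in HT29 from 3.19 to 18 CPM, and ATP13A4, of the family of polyamine-transporting ATPases, from 0.694 to 8.99. Of 5 other antizyme, inhibitor and catabolic genes, SAT2, a relative of SAT1, rose in HT29 from 4.45 to 26.4 CPM (2.57 ± 0.095) and in t-hESC from 52.3 to 62.3 (0.25 ± 0.054). VXN changed 1 of these 5 in t-hESC (29.0% of all genes) and 4 in HT29 (60.0%), where OAZ3 (-0.38 ± 0.088) and AOC1 (-0.37 ± 0.088), a diamine oxidase, fell.

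EIF5A, the translation factor that carries hypusine, a residue made from spermidine, fell in all 3 comparisons. It went from 965 CPM in t-hESC with DMSO to 743 with BIX (-0.38 ± 0.029, adjusted p = 3.88e-17) and 741 with VXN (-0.38 ± 0.028, adjusted p = 7.86e-18), and in HT29 from 642 to 423 with VXN (-0.60 ± 0.029, adjusted p = 3.95e-28). Of the 4 hypusine genes 2 fell with BIX, 1 with VXN in t-hESC and 2 in HT29 (23.1%, 29.0% and 60.0% of all genes called), where DHPS, which starts the modification, rose (0.50 ± 0.072). DOHH, which completes it, fell with BIX (-0.42 ± 0.092) and with VXN in HT29 (-0.23 ± 0.085).

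The methionine cycle and salvage genes, which feed AMD1 and recycle its by-product, showed 2 rises and 5 falls of 12 with BIX, 3 falls with VXN in t-hESC, and 4 rises and 7 falls in HT29, beside 23.1%, 29.0% and 60.0% of all genes called. MTAP, which clears methylthioadenosine, fell in HT29 from 211 to 111 CPM (-0.92 ± 0.036, adjusted p = 8.77e-33), MTR, methionine synthase, from 41.7 to 22.3, and MAT2B from 123 to 76.2, while MAT2A, which makes S-adenosylmethionine, rose from 459 to 609 (0.41 ± 0.029, adjusted p = 8.44e-20), a gene named after its values were seen. In t-hESC under VXN AHCY fell by 0.23 on the log2 scale (SE 0.031) and MTAP by 0.17 (SE 0.058). Under BIX MTR rose (0.32 ± 0.065), as did MAT1A from 1.69 to 3.97 CPM.

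MYC and its partners were read because ODC1 is a known MYC target. MYC measured 21.2 and 21.6 CPM in t-hESC with DMSO, 18.4 and 19.3 with BIX, and 17.5 and 18.3 with VXN, changes of -0.19 ± 0.080 (adjusted p = 0.0865) and -0.26 ± 0.078 (adjusted p = 0.00776). In HT29 it went from 315 and 304 CPM to 221 and 221 (-0.49 ± 0.033, adjusted p = 3.41e-21). MYCN, the family member of embryonic cells, held 106 and 112 CPM in t-hESC with DMSO, 86.9 and 86.3 with BIX (-0.33 ± 0.050) and 79.9 and 89.3 with VXN (-0.37 ± 0.049), and 0 to 4 counts per HT29 library. MXD1, an antagonist that pairs with MAX, rose with VXN in t-hESC from 1.55 to 3.50 CPM (1.18 ± 0.22) and in HT29 from 35.6 to 112 (1.66 ± 0.052). MNT, another antagonist, rose by 0.51 ± 0.084 and 0.52 ± 0.061. Other antagonists of the same list went the other way with VXN: MXD4 fell by 0.22 in t-hESC and 0.83 in HT29 on the log2 scale, and MXD3 by 0.17 and 0.44. The MXD4 value of t-hESC and both MXD3 values were picked after they were seen. MYCL, a further MYC family member, fell in t-hESC from 39.9 to 34.0 CPM and rose in HT29 from 12 to 32.6 (1.45 ± 0.077, adjusted p = 3.76e-26). With BIX MGA rose (0.49 ± 0.062), and MXD3 (-0.25 ± 0.042) and MYCL (-0.21 ± 0.067) fell. Of the 10 network genes 1 rose and 3 fell with BIX, 4 and 5 with VXN in t-hESC, and 4 and 3 in HT29, beside 23.1%, 29.0% and 60.0% of all genes called. The HT29 share is near its background.

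The genes most like ODC1 over the 3 log2 fold changes were taken by Euclidean distance among the 14311 genes averaging 4 CPM or more. They were HOXB-AS3 (distance 0.174), ENSG00000204620 (0.184, with no symbol), RBM3 (0.206), CENPS-CORT (0.219) and FABP5 (0.248). RBM3, for example, had log2 fold changes of -0.48 with BIX, -0.69 with VXN in t-hESC and -0.76 with VXN in HT29. The list is a description over 5 groups, 2 of the 3 changes share controls, and the libraries do not mark strand, so an antisense gene such as HOXB-AS3 cannot be told apart from its partners. For the same reason reads of genes that overlap ODC1, AMD1, SAT1 and SMOX in the annotation may be counted with either gene.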

How the data were processed

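Cells of the lines HT29 and t-hESC gave total RNA for TruSeq RNA v2 libraries, per the labels' protocols. Without assigning roles, the submitters' processing notes list DESeq2 1.34.0, STAR, FastQC 0.11.9 and fastp 0.20.1 and the genome GRCh38 (hg38). Which program counted the reads, and on which annotation, was not given in the sources used here. The authors deposited raw counts per gene and per repeat family. Their deposited comparison tables hold log2 fold changes and adjusted p-values, used here only for which genes were called. Groups came from sample titles. The 1181 repeat families were left out, and 4 further columns that match no sample were not used.

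All libraries were modelled together in edgeR 4.0.16 under R 4.3.3 (TMM, filterByExpr with a minimum count of 10, robust quasi-likelihood F test, all 10 libraries, 5 group means, 5 residual degrees of freedom). Benjamini-Hochberg adjustment ran over 22495 genes, and genes with an adjusted p under 0.05 are called. The fit was tested on simulated data, where false calls exceeded the nominal share for BIX and for VXN in HT29. Library totals ran from 13137026 to 24492838 counts. Alternatives were other scaling factors, DESeq2 1.42.0, other filters, fewer groups, a replicate block and each library left out. The members, lists and tests were chosen with earlier results of these data known. Named genes are the 10 members, up to 4 called genes of each pathway list and comparison with the largest change and at least 1 CPM, MYC, MYCN, and the 5 genes nearest to ODC1 in log2 fold change. Levels are not compared between genes, as no transcript lengths were used. Sequences came from RefSeq tables of GRCh38.p14.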

Additional observations from a re-analysis of the deposited data

Results flagged for a closer look

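In 8 of the 9 genes tested the VXN effect in HT29 differed from that in t-hESC by the test of the difference itself (edgeR, adjusted over all 22495 genes). ODC1 was given without a test. The difference of log2 fold changes was 1.17 for SMOX (adjusted p = 5.06e-16), 0.51 for SAT1 (3.47e-12) and 0.27 for SRM (0.000267). It was -0.87 for SMS (6.28e-24), -0.60 for OAZ2 (3.08e-14), -0.57 for OAZ1 (3.99e-18), -0.21 for AZIN1 (0.000334) and -0.20 for AMD1 (0.000604). For 7 of these genes both HT29 libraries with VXN lay on the same side of their controls, SRM being the exception, and in t-hESC they did so for all 8. Of all genes 43.2% differed in this way.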

How the results depend on the processing

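Of 39 called results of the 10 genes, 36 kept their call under every alternative and 0 changed direction. The 3 that lost it, SMS, SMOX and OAZ2 with BIX, are given in the report. The authors' deposited tables were not among these alternatives, and they leave further of these results uncalled, as listed in the report. DESeq2 called 4 of the 9 genes with BIX instead of 7, 3158 instead of 5199 of all genes, and, with VXN in t-hESC, 4086 instead of 6531 of all genes; the cause was not tested. Uncalled values changed sign for SRM with VXN in HT29, to 0.011 with a minimum count of 50 and over -0.042 to 0.017 when libraries were left out, and for PAOX with VXN in t-hESC, over -0.31 to 0.13. Leaving out a library gave 5 to 7 genes called with BIX and left the counts of the other comparisons at 7, 8, 8 and 9. No pairing by replicate number was seen: deviations of same-numbered libraries correlated at -0.084 to 0.012 over 10 pairs of groups. These deviations hold much counting error, so the correlations cannot show whether the numbers mark a shared batch. With the replicate block 7, 7, 8, 8 and 9 of the genes were called, as without it, and 5101, 6442, 13426, 9659 and 18948 of all genes. Groups of 2 libraries allow no test for outlying libraries, and low counts limit PAOX (39 to 76 counts).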
